A study of Mus musculus with 10 samples.

Results

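The 8 genes described here, Gpsm2, Gcsam, Rgcc, Maged1, Nt5dc2, Timd2, Mybl1 and Basp1, were chosen by name because their array signals were among those with the largest rises from naive to germinal centre (GC) B cells, out of 18194 genes with a probe set of their own, of which 17204 were tested. The difference between GC and naive cells is therefore what selected them, and it is given below as a description with no test. Signals came from Affymetrix mouse expression arrays, and for each gene the probe set that is assigned to its symbol alone and has the highest mean over the 10 arrays was used. All 8 genes passed the filter for testing, a value above log2 4 on at least 3 arrays, and 4 of the 8 had at least 1 naive array below that level. Maged1, with all 4 naive arrays below it, passed through its GC arrays alone. Gpsm2 and Nt5dc2, with 2 and 3 naive arrays below it, also needed their GC arrays to pass.

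There were 3 groups of sorted splenic B cells on a Balb/c background. Naive B cells (n = 4) came from unimmunized Balb/c mice. GC B1-8 cells (n = 3) came from mice with the VH186.2 immunoglobulin heavy chain transgene, and GC V23 cells (n = 3) from mice with the V23 transgene; mice of both lines also carry a targeted deletion of the endogenous JH locus, so that B cells depend on the transgene for their heavy chain. The GC mice had been immunized with 50 µg of NP-CGG in alum, a hapten on chicken gamma globulin, and λ+ PNA+ B220+ cells were sorted 14 days later. Immunization, transgene, JH deletion and the λ and PNA stains all differ between the GC and naive groups and cannot be told apart in that comparison. The labels do not say whether replicates are separate or pooled mice, so the spread given may be technical.

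A germinal centre is the structure in spleen or lymph node where activated B cells divide rapidly, mutate their antibody genes and are selected for binding to antigen. The 8 genes act at different places in such a cell. Gpsm2, also called LGN, ties the mitotic spindle to the cell cortex, Mybl1 encodes the transcription factor A-Myb, and Rgcc encodes a cell cycle regulator first described as a response gene to complement. Gcsam is a GC-restricted adaptor that in human B cells modulates antigen receptor signals and motility, and Timd2 is a cell surface receptor of the T cell immunoglobulin and mucin family. Maged1 is an adaptor of the MAGE family, Nt5dc2 a relative of the nucleotidases, and Basp1 a myristoylated protein of the membrane and nucleus.

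Promoter sequence was available from RefSeq (GRCm38.p6) for 7 of the 8 genes, as 9 windows that run from 250 bases before to 50 after a transcript start. Windows of 3 genes are shown because their letters range from both elements described next to neither. Capitals mark matches on either strand to TTTGAA, the core of the cell cycle homology region (CHR) that MuvB complexes bind in promoters of mitotic genes, and to CCAAT, the box bound by NF-Y.
Gpsm2 promoter, chr3:108722250-108722549, minus strand: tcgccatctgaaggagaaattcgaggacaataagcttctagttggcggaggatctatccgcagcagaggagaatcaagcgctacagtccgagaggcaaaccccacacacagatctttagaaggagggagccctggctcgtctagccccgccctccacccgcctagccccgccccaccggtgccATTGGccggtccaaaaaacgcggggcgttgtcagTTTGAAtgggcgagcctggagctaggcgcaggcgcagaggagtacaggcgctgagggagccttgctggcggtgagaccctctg
Gcsam promoter, chr16:45610190-45610489, plus strand: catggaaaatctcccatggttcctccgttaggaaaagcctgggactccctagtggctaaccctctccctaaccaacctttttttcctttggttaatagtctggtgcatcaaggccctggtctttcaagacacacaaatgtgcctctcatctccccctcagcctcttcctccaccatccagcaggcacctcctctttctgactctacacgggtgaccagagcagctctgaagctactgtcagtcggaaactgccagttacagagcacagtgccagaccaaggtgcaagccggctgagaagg
Nt5dc2 promoter, chr14:31130839-31131138, plus strand: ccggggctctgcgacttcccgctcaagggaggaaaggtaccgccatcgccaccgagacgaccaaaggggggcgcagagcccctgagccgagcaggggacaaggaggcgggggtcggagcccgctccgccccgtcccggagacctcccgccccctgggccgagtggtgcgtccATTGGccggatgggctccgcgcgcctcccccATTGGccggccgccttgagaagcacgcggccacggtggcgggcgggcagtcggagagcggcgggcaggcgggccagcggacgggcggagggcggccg
The Gpsm2 window held both elements, a CCAAT box whose match begins at position -67 and a CHR match at position -33 (0 is the first transcribed base). The Nt5dc2 window held CCAAT matches at positions -78 and -47 and no CHR match, and the Gcsam window held neither set of letters. Over the 7 genes, CHR letters lay in a window of 2 (Gpsm2 and Timd2) and CCAAT letters in a window of 2 (Gpsm2 and Nt5dc2); of 32851 promoter windows of the same length, 17.9% hold TTTGAA and 37.4% hold CCAAT. The MYB core AACNG, the motif of the family to which A-Myb belongs, lay in a window of 5 of the 7 genes, but 80.3% of all windows hold it; the Gpsm2 match, at position -36, overlaps the CHR match. The GC box GGGCGG lay in a window of 4 genes (35.7% of all windows), and the E2F core TTCCCGC in a window of 1, Nt5dc2 (4.60% of all windows). The shares of all windows count windows and not genes. Counted that way, CHR letters lay in 2 of the 9 windows, CCAAT in 3, the MYB core in 6, the GC box in 5 and the E2F core in 1. These are letter matches and not shown sites of binding.

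The defining markers of B cells were present in all 3 groups: Ms4a1, which encodes CD20, lay between 14.08 and 14.44 and Cd79a, a chain of the antigen receptor, between 12.94 and 13.89 (log2) over the 10 arrays, although 3 of 7 B cell markers, Cd79a, Pax5 and Blnk, passed the limma test as lower in GC cells. Array medians ranged from 6.70 to 7.04. All 9 measured neutrophil markers passed the limma test as higher in GC cells, and their summed unlogged signal was 2714 to 13971 on the naive, 59861 to 61852 on the B1-8 and 37963 to 56520 on the V23 arrays. Of the other marker lists, plasma cell markers were higher in 3 and lower in 2 of 8, macrophage markers in 1 and 4 of 9, T cell markers in 0 and 1 of 10, and NK cell markers in 0 and 3 of 5. Dendritic cell markers were higher in 1 and lower in 2 of 6, erythroid in 0 and 2 of 5, and stromal and follicular dendritic cell markers in 0 and 2 of 8. The higher macrophage marker was Lyz2, and the lower stromal and follicular dendritic cell markers were Cxcl13 and Cr2. Cr2 read 12.91 to 14.02 over the 10 arrays, near the level of the B cell marker Cd79a. No listed marker was below log2 4 on every array. Some of these calls rested on single arrays or the scaling. Without naive replicate 2 both lower dendritic cell markers (Itgax and Siglech) were lost. So were Cd79a, the plasma cell marker Xbp1, the macrophage marker C1qc, the T cell marker Cd3d and the NK cell marker Klrk1. Median centring also removed Cd79a, C1qc, Cd3d and Klrk1. Quantile normalization removed Xbp1, Itgax, Cd3d and Klrk1, and it added Prf1 and Col1a2 as higher. Both erythroid calls were lost without naive replicates 2 and 4. Among the naive arrays the summed neutrophil signal was highest on replicate 4. The 3′ minus 5′ difference of the Actb control probe sets, a reading of RNA integrity, was 1.27 to 1.65 (log2) on naive and 0.71 to 1.19 on GC arrays. The part of either in the differences below was not tested. The arrays measure bulk RNA, in which a change in the number of cells that express a gene and a change in RNA per cell cannot be told apart.

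Genes of division and transcription are described first. Gpsm2 (1424895_at) read 1.96, 6.53, 2.96 and 4.65 on naive replicates 1 to 4, then 10.03, 9.97 and 10.17 on the B1-8 and 9.89, 10.27 and 10.55 on the V23 arrays (log2 signal). Naive replicates 1 and 3 were below log2 4, where values carry little order, and replicate 2 was the highest naive array. The 6 GC arrays spanned 0.66 and the 4 naive arrays 4.56, and the lowest GC array lay 3.36 above the highest naive array. The fitted GC minus naive difference was 6.12 ± 0.78 (log2, SE, n = 6 and 4). This SE, like every SE below, comes from 1 spread shared by the 3 groups. The Gpsm2 SD was 2.00 on naive, 0.10 on B1-8 and 0.33 on V23 arrays. For 7 of the 8 genes the naive SD exceeded both GC SDs. For those 7 the SE of the GC minus naive difference understates the uncertainty that the naive arrays leave. With naive values raised to log2 4 the Gpsm2 difference was 5.35. The floored value is a 40.8-fold ratio of geometric means, the form of every fold given below unless stated, while the ratio of mean unlogged signals was 35.5.

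Mybl1 (1456951_at) read 6.76, 8.85, 6.93 and 7.59 on the naive arrays, 12.00, 11.68 and 11.86 in B1-8 and 11.68, 11.59 and 11.73 in V23. No naive value lay below log2 4, and naive replicate 2 was again the highest. The difference was 4.22 ± 0.37, or 18.7-fold. A further probe set of the gene, 1450481_at, gave 4.14, and it too had naive replicate 2 highest, at 6.56 against 5.08 to 5.60.

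Rgcc (1438511_a_at) read 6.76, 6.27, 5.30 and 6.29 on the naive arrays. It read 11.10, 11.40 and 11.47 in B1-8 and 10.60, 11.04 and 10.98 in V23, with the lowest GC array 3.84 above the highest naive array. Here the naive arrays were close together, with an SD of 0.61, and replicate 2 did not stand out. The difference was 4.94 ± 0.26 (30.7-fold) by this probe set, but 4.18 by 1418003_at, which detects the same gene.

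The genes of signalling and the cell surface were Gcsam and Timd2. Gcsam (1420544_at) read 5.25, 8.52, 5.25 and 7.25 on the naive arrays against 12.09, 12.02 and 12.01 in B1-8 and 12.12, 12.11 and 12.07 in V23. Its 6 GC values spanned 0.11, the narrowest GC span of the 8 genes, while its naive values spanned 3.28. The difference was 5.50 ± 0.62 (45.4-fold); the further probe set 1442582_at, with 2 naive arrays below log2 4, gave 6.15, or 5.61 with the floor.

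Timd2, which in mice binds heavy chain ferritin, read 6.08, 6.79, 5.01 and 3.60 on the naive arrays by probe set 1418766_s_at. It read 10.36, 10.21 and 9.95 in B1-8 and 9.94, 10.02 and 9.78 in V23. The difference was 4.67 ± 0.54, and 4.57 (23.8-fold) with the naive value below log2 4 raised to it; the ratio of mean unlogged signals was 19.1. By 1418765_at the naive arrays read 4.03, 6.06, 3.74 and 5.92 and the difference was 4.08. The probe sets ranked the naive arrays differently, with replicate 4 lowest by the former and second highest by the latter, while GC and naive arrays did not overlap by either.

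Maged1, Nt5dc2 and Basp1 complete the set. Maged1 (1450062_a_at) read 2.71, 2.69, 3.21 and 2.66 on the naive arrays, all below log2 4, against 7.87, 7.86 and 7.38 in B1-8 and 7.91, 7.68 and 7.47 in V23. All 4 naive values are in the range without order, so its difference of 4.88 ± 0.16 is better read as the bound of 3.69, at least 12.9-fold. Nt5dc2 (1424882_a_at) read 0.90, 2.76, 4.88 and 3.59 on the naive arrays, 3 of them below log2 4. It read 7.44, 7.59 and 6.98 in B1-8 and 7.92, 8.34 and 8.21 in V23. Its difference of 4.71 ± 0.65 became 3.53 with the floor, at least 11.5-fold, and its highest naive array was replicate 3.

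Basp1 (1428572_at) read 8.23, 11.92, 8.86 and 9.78 on the naive arrays, far above log2 4. It read 13.37, 13.37 and 13.12 in B1-8 and 13.52, 13.53 and 13.49 in V23. The difference was 3.70 ± 0.62 (13.0-fold), the smallest of the set as deposited, and the gap between the lowest GC and the highest naive array, 1.19, was also the smallest of the 8. Among the 8418 tested genes with a naive mean above log2 8, 99.98% had a smaller naive SD than Basp1, whose SD was 1.61 (n = 4).

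**Figure D1:**
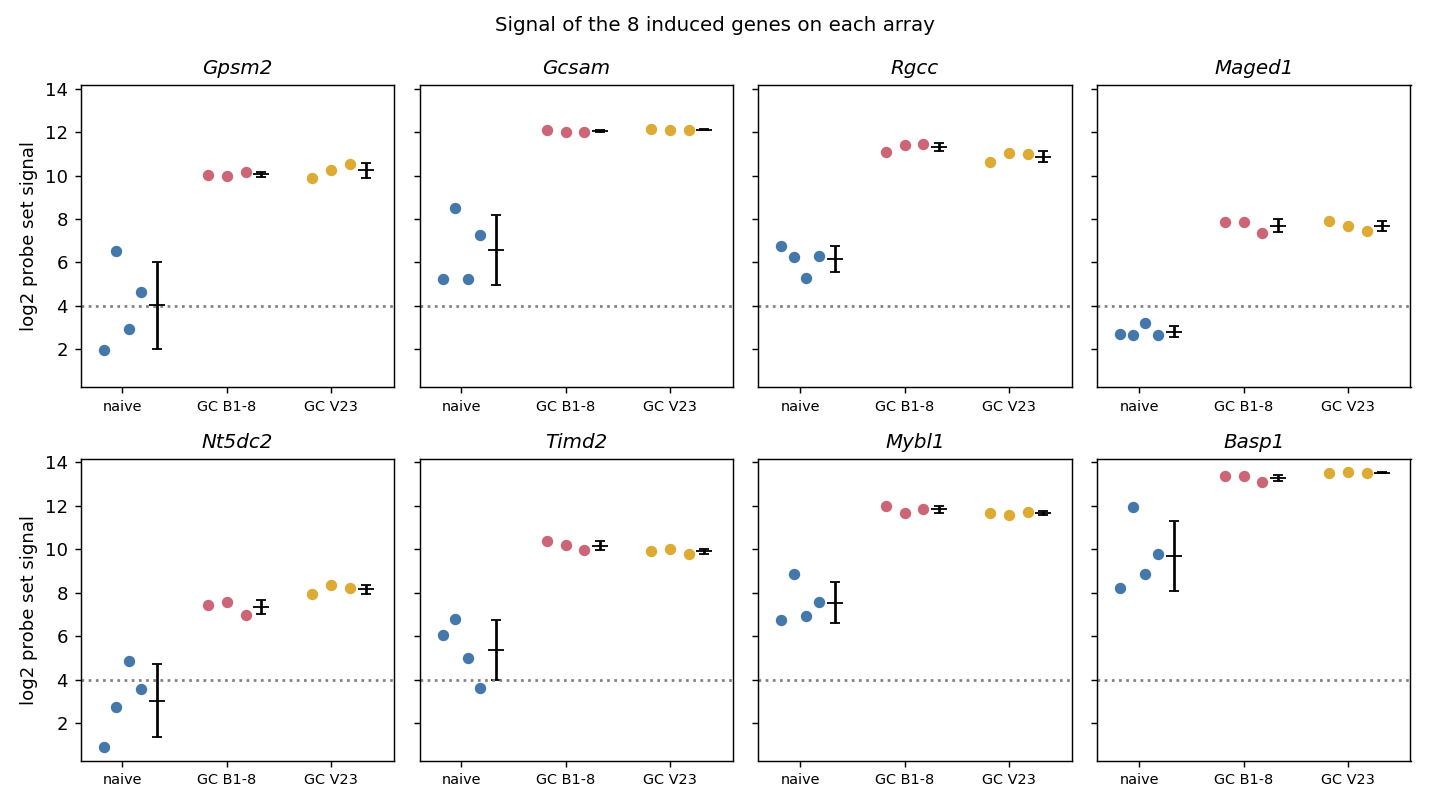
Log2 probe set signal (y axis) of each of the 8 genes on the 4 naive, 3 GC B1-8 and 3 GC V23 arrays (x axis). Points are arrays, bars the mean ± SD, and the dotted line log2 4; every GC array lies above every naive array in all 8 panels, and Maged1 has all 4 naive arrays under the line.

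Over the 8 genes, 10 of 32 naive values and 0 of 48 GC values lay below log2 4. All 8 genes had every GC array above every naive array, as had 17% of all tested genes, and this separation follows from how the genes were chosen. By the deposited values the genes ranked 2 (Gpsm2), 3 (Gcsam), 6 (Rgcc), 7 (Maged1), 8 (Nt5dc2), 10 (Timd2), 19 (Mybl1) and 38 (Basp1) among the 17204 differences. With all values raised to log2 4, Gcsam ranked 2, Gpsm2 3, Rgcc 5, Timd2 7, Mybl1 12, Basp1 28, Maged1 29 and Nt5dc2 36. Ratios of mean unlogged signals, on which a high naive array weighs more, ran from 7.86 for Basp1 to 35.5 for Gpsm2, with 28.9 for Gcsam. The floor left 4 of the 8 in the top 10, where the deposited values put 6, and it brought the differences of Maged1 and Nt5dc2 just below that of Basp1.

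**Figure D2:**
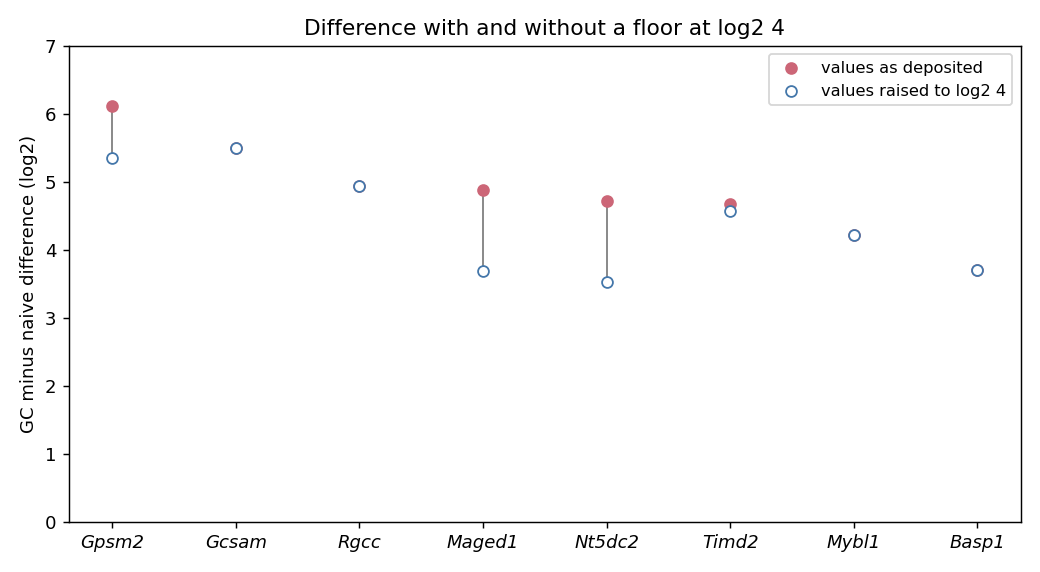
GC minus naive difference in log2 units (y axis) of the 8 genes (x axis), from the values as deposited (filled) and with values raised to log2 4 (open; a lone open circle means that the values coincide). Maged1 moves from 4.88 to 3.69 and Nt5dc2 from 4.71 to 3.53, while Gcsam, Rgcc, Mybl1 and Basp1 have no value under the floor.

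The naive arrays differed from each other, and not alike for all genes. Naive replicate 2 was the highest naive array for 5 of the 8 genes (Gpsm2, Gcsam, Timd2, Mybl1 and Basp1) and the lowest for 0. On the unlogged scale its Basp1 signal was 35.8% of the mean of the 6 GC arrays, against 2.77%, 4.28% and 8.09% on naive replicates 1, 3 and 4. Its Mybl1 signal was 13.2% of the GC mean (3.13% to 5.54% on the others), its Gcsam signal 8.55% (0.88% to 3.52%) and its Gpsm2 signal 8.04% (0.34% to 2.19%). Rgcc and Maged1 did not share this pattern: naive replicate 2 stood at 3.46% and 3.08% of the GC mean, within the range of the other naive arrays.

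Of 74 tested partners and relatives of the 8 genes, described below, 32 had their highest naive value on replicate 2. Replicates 1, 3 and 4 had 16, 11 and 15. Among the 28 called higher in GC cells it was 19, against 2, 2 and 5. The highest naive array was not counted over all tested genes. Neither these counts nor the 5 of 8 therefore show whether replicate 2 was highest more often for these genes than for others. S1pr2, a receptor that confines B cells to the GC, read 9.87 on naive replicate 2 and 7.70 to 8.53 on the others, and the mitotic kinase gene Cdk1 read 9.48 against 8.32 to 8.76. The part of such genes in the naive values of the 5 genes was not tested. Without naive replicate 2 the GC minus naive difference was 6.95 for Gpsm2, 6.16 for Gcsam and 4.44 for Basp1, each more than 1.5-fold larger; with values raised to log2 4 Gpsm2 was at 5.93. Without naive replicate 1 it was 5.43 for Gpsm2 and 4.00 for Nt5dc2, and without replicate 3 it was 5.33 for Nt5dc2. These last 3 values follow from naive readings below log2 4: with the floor they were 5.09, 3.45 and 3.75, beside 5.35 for Gpsm2 and 3.53 for Nt5dc2 with all arrays. Without replicate 4 the Timd2 difference was 4.08, with or without the floor.

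**Figure D3:**
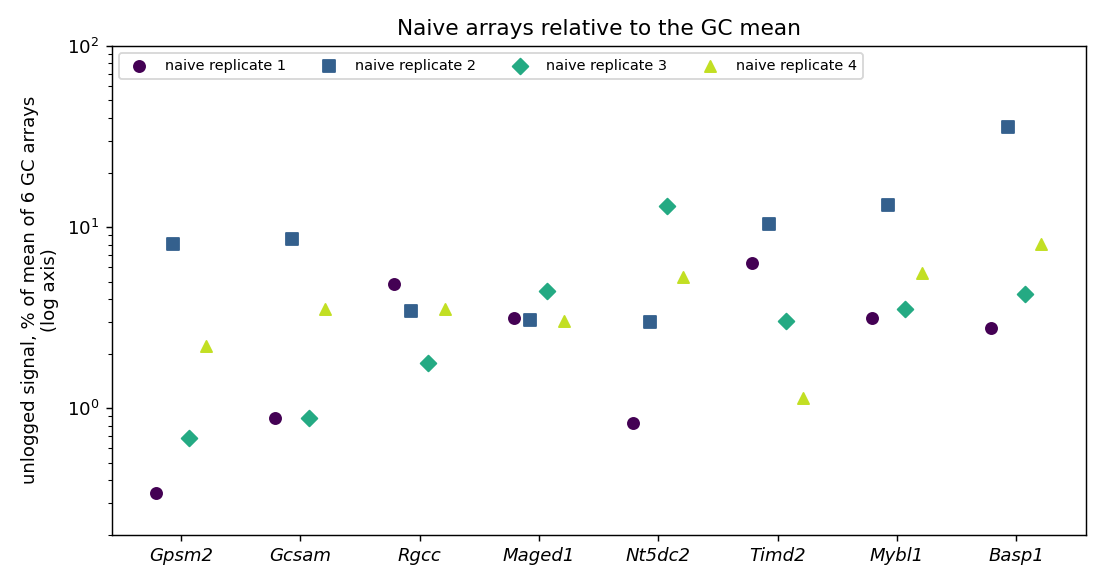
Unlogged signal of each naive array as a percentage of the mean of the 6 GC arrays (y axis, log scale) for the 8 genes (x axis). Each symbol is a naive replicate; replicate 2 is at 35.8% for Basp1 and 13.2% for Mybl1, but at 3.46% for Rgcc.

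GC B1-8 and GC V23 cells, which differ in their heavy chain transgene, were then compared. Their difference played no part in choosing the genes and can be tested. None of the 8 genes passed: 0 of 8 by limma with Benjamini-Hochberg adjustment over all genes, beside 0.0233% of all tested genes. Adjusted p-values ranged from 0.796 for Rgcc to 0.994 for Maged1. At an unadjusted limma p under 0.05 it was also 0 of 8, beside 1328 of all 17204 tested genes. That share is too small for 0 of 8 to set these genes apart. The genes went either way, with 4 higher in B1-8 and 4 higher in V23. The groups did not overlap for 3 of the 8 genes (Rgcc, Nt5dc2 and Basp1), against 13.7% of all tested genes.

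Of the 8 genes Nt5dc2 had the largest difference between the lines. All 3 V23 arrays, at 7.92 to 8.34, lay above all 3 B1-8 arrays, at 6.98 to 7.59, and the B1-8 minus V23 difference was -0.82 ± 0.83 (log2, SE; 95% confidence interval -2.71 to 1.07; adjusted p = 0.860), a 1.76-fold higher level in V23. Rgcc was higher in B1-8, by 0.45 ± 0.33 (interval -0.31 to 1.20; adjusted p = 0.796), and its further probe set gave 0.47, again with no overlap. Basp1 differed by -0.23 ± 0.79 (interval -2.04 to 1.57). For these 3 genes the two-sided exact permutation test gave p = 0.1, the smallest that 20 splits of 6 arrays allow. The lack of overlap fixes that value in advance, so the test adds nothing to it.

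These intervals take their spread from all 10 arrays, and for every gene of the 8 except Maged1 they were wider than those of a fit of the GC arrays. In that fit of 6 arrays the Nt5dc2 interval was -1.34 to -0.30 (limma unadjusted p = 0.0088, adjusted p = 0.626) and the Rgcc interval 0.01 to 0.89 (unadjusted p = 0.0470, adjusted p = 0.758). For Gcsam the interval of that fit was -0.29 to 0.17 and for Mybl1 -0.13 to 0.49, so differences beyond those bounds lie outside the intervals. The corresponding bounds were -0.66 to 0.30 for Gpsm2, -0.48 to 0.50 for Maged1, -0.11 to 0.63 for Timd2 and -0.52 to 0.06 for Basp1. In either fit 0 of the 8 genes passed after adjustment. The fit of 6 arrays called 0 of all 16691 genes it tested, so 0 of 8 there does not set these genes apart. How many of all genes had an unadjusted p under 0.05 in that fit was not counted.

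**Figure D4:**
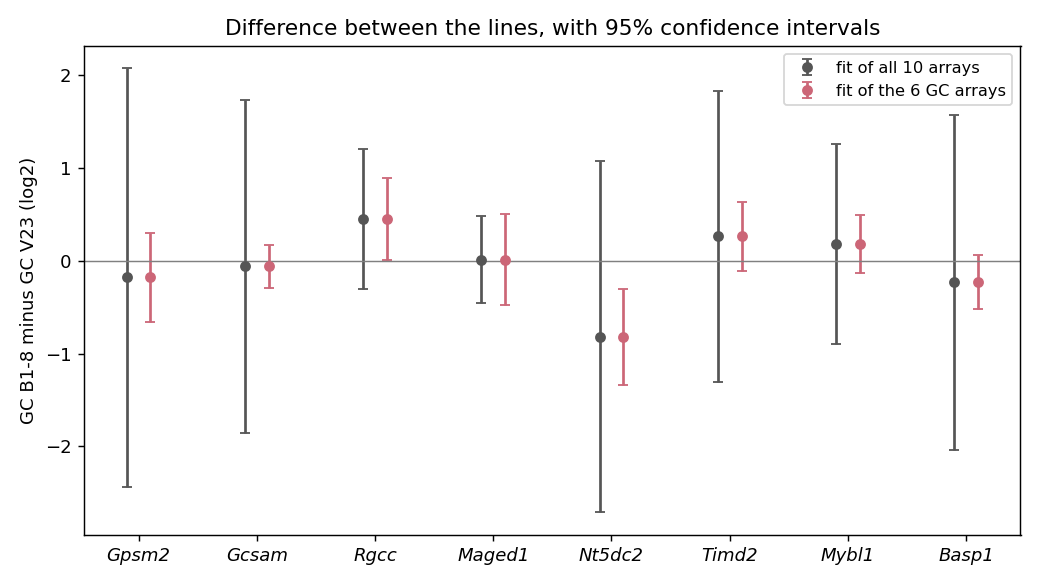
GC B1-8 minus GC V23 difference in log2 units (y axis) of the 8 genes (x axis), with 95% confidence intervals from the fit of all 10 arrays (grey) and of the 6 GC arrays (red). The Nt5dc2 point is at -0.82 and the Rgcc point at 0.45; the intervals from 10 arrays all include 0.

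Each line was also set against the same 4 naive arrays, so the values of the lines are not independent. Gpsm2 differed from naive by 6.03 in B1-8 and 6.21 in V23, or 5.26 and 5.44 with the floor, and Gcsam by 5.47 and 5.53. Maged1 differed by 3.70 and 3.69 with the floor, and Timd2 by 4.70 and 4.44. Mybl1 differed by 4.32 in B1-8 and 4.13 in V23, and Basp1 by 3.59 and 3.82. Nt5dc2 differed by 4.31 in B1-8 and 5.12 in V23, or 3.12 and 3.93 with the floor, and Rgcc by 5.17 and 4.72. Naive cells had the lowest mean for all 8 genes, with the order of the lines not settled by the test for any of them.

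Genes with the most similar pattern were taken as the 3 with the highest Pearson r over the 10 arrays, with values raised to log2 4. The other genes of the set, and genes whose chosen probe set ends in _x_at, were left out of this search. Such r values are high for any gene that separates GC from naive cells, and they are given as a description. For Gpsm2 these were Nuf2, a kinetochore protein (r = 0.998), E2f8, a cell cycle transcription factor (0.998), and Lrr1 (0.998). Mybl1 was closest to Rassf6 (0.999), the replication nuclease Dna2 (0.997) and the DNA glycosylase Neil1 (0.997), and Gcsam to Ska3, of the spindle and kinetochore complex (0.998), Plxnb2 (0.998) and the kinetochore gene Kntc1 (0.997). Basp1 was closest to 2510009E07Rik (0.994), the proliferation marker Mki67 (0.993) and Gnaz (0.992).

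Rgcc was closest to Kbtbd7 (0.995), Trib2 (0.992) and Igkv6-14 (0.9904), and Maged1 to the nucleotide kinase gene Cmpk1 (0.997), Parm1 (0.995) and Hmgn3 (0.995). Nt5dc2 was closest to B9d1 (0.996), Pdap1 (0.993) and Rpp30 (0.991). Timd2, for which naive replicates 2 and 1 were highest, was closest to Kbtbd6 (0.993), Xrcc1 (0.993) and Rnf19b (0.992). Among the 8 genes themselves r ran from 0.860, for Nt5dc2 with Basp1, to 0.996, for Gpsm2 with Mybl1.

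Partners and relatives of the 8 genes, which were not chosen by rank, were read from the limma test of GC cells, with both lines weighted equally, against naive cells. In that test 20.5% of all genes were called higher and 21% lower, and the median difference of all genes was 0.06. The balance of calls moved with the scaling, from 3521 higher and 3619 lower to 4165 and 2908 with median centring and 4115 and 3182 with quantile normalization. Of 13 measured spindle orientation partners of Gpsm2, 0 were higher and 4 lower, with a median of 0.04; Pard3 and Pard6a were called higher with median centring or quantile normalization, Dctn1 lower with the latter, and Pard3 higher without naive replicate 2. The 4 were the paralogue Gpsm1 (-1.68 ± 0.14, adjusted p = 2.9e-05), the polarity kinase gene Prkci (-1.05 ± 0.10, adjusted p = 5.3e-05), Numa1 (-0.79 ± 0.15, adjusted p = 0.0028), which Gpsm2 recruits to the cortex, and the dynein heavy chain gene Dync1h1 (-0.71 ± 0.09, adjusted p = 0.00031). Gnai2 and Gnai3, which encode the G protein subunits that anchor Gpsm2, were at 0.08 ± 0.07 and 0.15 ± 0.06 and did not pass.

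Of 12 MYB family and MuvB genes measured beside Mybl1, 7 were higher and 1 lower, with a median of 0.51. Mybl2, which encodes the B-Myb paralogue that joins the MuvB complex, rose by 2.82 ± 0.17 and Myb by 1.15 ± 0.24. Rbl1 rose by 1.17 ± 0.08 and the mitotic factor Foxm1 by 1.11 ± 0.12, while Rbl2, a pocket protein of resting cells, was the gene that fell (-0.54 ± 0.09). Lin37 and Lin52 were added to the higher genes by either scaling and E2f4 by quantile normalization, and Lin54 was lost without naive replicate 2.

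Of 9 genes listed with Rgcc, 4 were higher and 3 lower, with a median of 0.22. Ccnb2, the cyclin partner of Cdk1, rose by 3.41 ± 0.30, Cdk1 by 3.25 ± 0.21 and the mitotic kinase gene Plk1 by 3.05 ± 0.30. Cd55, which restrains complement on the cell surface, fell (-3.10 ± 0.18). The complement receptor genes C3ar1 and C5ar1 were at 0.03 ± 0.22 and 0.22 ± 0.28 and did not pass.

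Of 10 genes of GC confinement and Gcsam partners, 6 were higher and 4 lower, with a median of 0.51; Rhoa was lost with quantile normalization or without naive replicate 2, and Syk with median centring. S1pr2, whose naive values are given above, rose by 3.89 ± 0.39. So did the death receptor gene Fas (1.29 ± 0.16) and Bcl6, the transcription factor that GC B cells require (1.11 ± 0.12), while Gcnt1, a glycosyltransferase gene, fell (-1.14 ± 0.17). Of 7 TIM family genes and ligands 2 were higher and 1 lower, with a median of 0.08, and Sema4a was added as higher by either scaling. Havcr1, the mouse TIM-1 gene, rose by 3.83 ± 0.38, from 7.44, 9.04, 6.73 and 7.67 on the naive arrays to 11.27 or more on every GC array, with naive replicate 2 again highest. The transferrin receptor gene Tfrc rose by 0.64 ± 0.10 and the semaphorin gene Sema4b fell (-1.74 ± 0.22). Havcr2 and Timd4 were at 0.08 ± 0.50 and -0.02 ± 0.65 and did not pass, and Fth1, the ferritin ligand gene, was at -0.11 ± 0.07. Timd4 fell below log2 4 on a naive array (3.19) and a V23 array (3.20), so it is not shown to be unchanged.

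Of 7 MAGE family genes measured beside Maged1, 0 were higher and 1, Mageh1, was lower (-0.65 ± 0.13), with a median of 0.41; Magee1 was called higher by either scaling. Of 8 nucleotidase genes 5 were higher and 2 lower, with a median of 0.39: the ectonucleotidase gene Nt5e rose by 2.18 ± 0.14 and the cytosolic Nt5c2 by 1.09 ± 0.08 and Nt5c3b by 0.89 ± 0.09, whereas Nt5dc3, a close paralogue of Nt5dc2, fell (-0.69 ± 0.12). Nt5dc1, also lower, was lost with median centring, and Nt5m, higher, without naive replicate 2. Of 8 genes listed with Basp1, 4 were higher and 2 lower, with a median of 0.72. Marcks, a myristoylated membrane protein that like Basp1 binds acidic phospholipids, fell (-3.62 ± 0.21), and its relative Marcksl1 rose by 1.62 ± 0.10. The myristoyl transferase gene Nmt1 rose by 0.76 ± 0.08 and the prohibitin gene Phb2 by 0.72 ± 0.08. Marcks, Marcksl1 and Phb2 were read from _x_at probe sets, a type left out of the search for similar patterns above. Gap43, the third protein usually grouped with Basp1 and Marcks, was at 0.85 ± 1.07 and did not pass. It fell below log2 4 on naive replicate 3 (1.06), B1-8 replicate 1 (3.00) and V23 replicates 1 and 2 (3.92 and 3.76). It is therefore not shown to be unchanged. No gene of these 8 lists was called between the lines (0 by limma), beside 0.0233% of all tested genes. That share is too small for this count to set the lists apart.

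**Figure D5:**
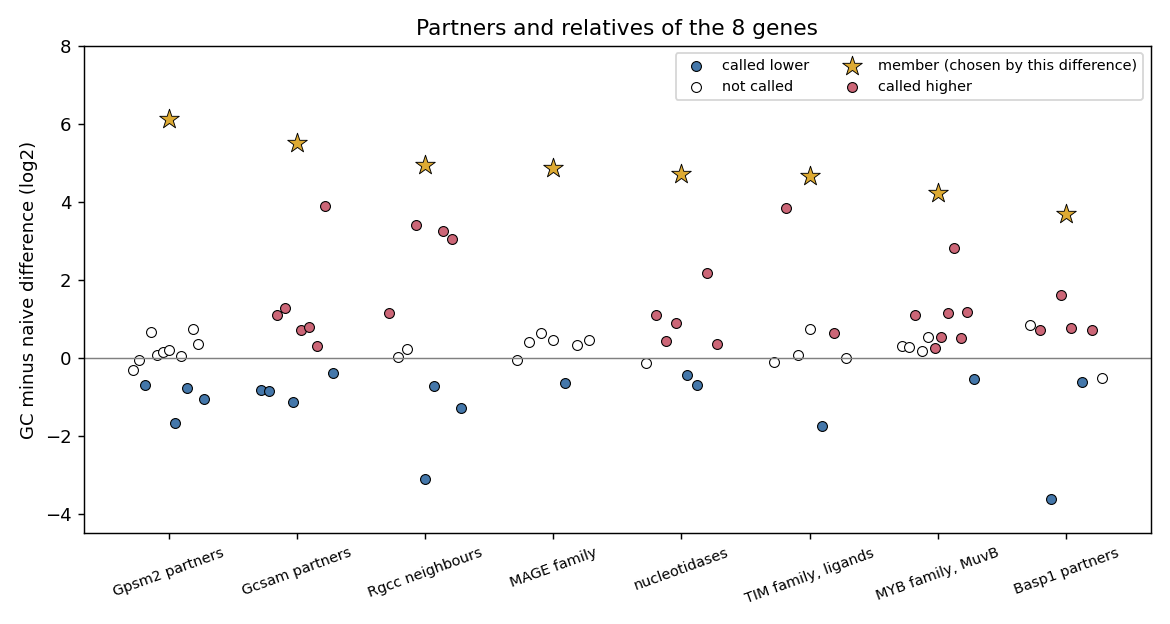
GC minus naive difference in log2 units (y axis) of the genes in each partner or family list (x axis); circles are genes, red called higher, blue called lower and white not called, and the star is the gene each list belongs to, which was chosen by this difference. No red circle stands in the Gpsm2 or MAGE columns, and Havcr1, at 3.83, and S1pr2, at 3.89, are the highest circles.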

How the data were processed

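The authors deposited log2 signals of each probe set on each array. The submitters' processing notes name GCRMA, without a version; the values instead have no floor, and the 2% trimmed mean of unlogged signal equals 500 for each array, the form of scaled MAS5 signals. They were used as deposited. Of 45101 probe sets 34958 carry 1 symbol in the platform annotation, 932 several and 9211 none; 18194 symbols and, after the filter given above, 17204 genes remained. limma 3.58.1 in R 4.3.3 fitted 3 group means over 10 arrays (7 residual degrees of freedom), with two-sided tests, Benjamini-Hochberg adjustment over all tested genes and a threshold of 0.05. It was checked on simulated data in which each gene had the same spread in all 3 groups. The check therefore does not cover the unequal spread of these genes. Residual SD had a median of 0.889 among genes with means under log2 6 and 0.118 among those over log2 10. Precision is limited by how many arrays there are. Members and lists were chosen with earlier results of these data known. From each partner list up to 4 called genes with the largest differences were named by rule; other genes from them were picked after their values were seen. Signs of the pairing of replicate numbers were looked for in deviations from group means. Alternatives changed the filter, probe set choice, scaling, floor, moderation, block and samples. Promoters are RefSeq's. Figures were drawn with matplotlib 3.10.9.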

Additional observations from a re-analysis of the deposited data

Results flagged for a closer look

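Maged1 (1450062_a_at) had a naive array away from the others: the gap of naive replicate 3, at 3.21, to the next array was 0.907 of the range of the 4 naive arrays, above Dixon's limit for 4 values. All 4 values lie below log2 4, the range is 0.55, and chance alone marks about 1 in 20 such groups; 12 probe sets were examined.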

How the results depend on the processing

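GC minus naive differences of the 8 genes kept their sign in all 180 alternatives, 161 of them within 1 residual SD of the value given. The genes were chosen for large rises, and every GC array lies above every naive array. Leaving out arrays or raising values to log2 4 could therefore not turn the sign. Some alternatives, such as the intensity trend, leave the difference itself unchanged. These 2 counts are thus no support for the rises. The count of genes called in that comparison, 7140 of 17204, stayed between 5891 and 7463. Median centring moved the median GC minus naive difference of all genes from 0.06 to 0.16, and quantile normalization to 0.12. Between the lines 4 genes were called, none of them among the 8. That count was 0 with the mean of a gene's probe sets, median centring, the replicate block, the 6 GC arrays alone or without naive replicates 2 and 4, and 17 with an intensity trend and robust moderation; leaving out 1 array at a time gave 0 to 11, the highest without GC V23 replicate 2. For the 8 genes no alternative brought the line difference past the threshold. Its sign turned only for Maged1, to -0.074 with quantile normalization, -0.050 with median centring, -0.071 and -0.067 without GC B1-8 replicate 1 or 2 and -0.098 without GC V23 replicate 3; leaving out 1 array at a time gave -0.098 to 0.173. The cause was not tested. Without naive replicates 2 and 4 the GC minus naive difference was 7.68 for Gpsm2, whose remaining naive values are both below log2 4 (6.14 with the floor), 6.82 for Gcsam, 4.91 for Mybl1 and 4.85 for Basp1. The use of the lower of 2 probe sets, and the floor together with left-out naive arrays, were added after seeing the data. Replicate numbers are shared by the groups, but same-numbered arrays did not deviate together (0 of 9 pairs correlated above 0.1, the highest at 0.072). The replicate block leaves naive replicate 4 without weight; with it 6429 genes were called in GC against naive, and the Timd2 difference was 4.08. The fit of compared groups alone is the fit given for GC against naive. Low signal limits Maged1 and Nt5dc2, whose naive levels are known only as below or near log2 4.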
